A study of Mus musculus with 18 samples.

Results

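The 10 genes Rin2, Tmem37, Ddit4l, Crebrf, Coq8a, Spsb1, Clca3a1, Dapk1, Itga9 and Antxr1 had transcripts that were among those furthest below control level in the testes of gonadotrophin-deficient mice given follicle-stimulating hormone (FSH). They were chosen for that reason, from the differences between FSH-treated and untreated mice, so those differences are given here as a description and without a test. The 10 genes had 21 of the 22626 probe sets analysed (groups of short probes that read 1 transcript), out of 12393 genes that had a probe set annotated with a single symbol.

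Whole testes of hypogonadal (hpg) male mice, adults aged 10 weeks, were the source of the RNA. In each treated group the mice were hpg males that received recombinant FSH (Gonal F), 8 IU under the skin in 0.2 ml of buffered saline at 12 h intervals, for 12 h (4 mice), 24 h (3 mice) or 72 h (4 mice). The 7 controls were untreated hpg males of that age, and each of the 18 mice gave 1 Affymetrix MOE430A array, which is read in 1 colour. All groups carry the hpg mutation, so no mouse here has normal gonadotrophin exposure, and whole testis mixes all the cell types of the organ.

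FSH acts on a receptor of Sertoli cells, which are the supporting cells within the seminiferous tubules and nurse the germ cells. The receptor raises cyclic AMP, which activates protein kinase A and the transcription factor CREB, and it also engages the kinase AKT, which keeps FoxO transcription factors out of the nucleus. The 10 genes belong to no single pathway. Rin2, Tmem37 and Clca3a1 encode proteins of membrane traffic or ion channels, Ddit4l, Crebrf and Spsb1 encode regulators of growth signalling and protein turnover, Coq8a encodes a mitochondrial protein, and Dapk1, Itga9 and Antxr1 encode a kinase of cell death and 2 receptors for the matrix around cells.

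The arrays fell into 2 sets. A bacterial spike-in transcript, Dap, read 8.00 to 8.92 on the 12 arrays of the 12 h mice, the 72 h mice and control mice 4 to 7, and 2.74 to 3.30 on the 6 arrays of the 24 h mice and control mice 1 to 3. The signal of 18S ribosomal RNA parted the same arrays, at 3.35 to 3.70 on the 12 and 9.07 to 11.7 on the 6. Each time was therefore set against the controls of its own set. Array medians lay between 4.44 and 4.63 (log2 expression, as in all values below), and 30.0% to 37.0% of the values on an array were under 3, where a value is near the floor of the array and only bounds the transcript. Sertoli cell and germ cell markers were present on all arrays, with Sox9 at 7.86 or above, Wt1 at 7.94 or above, Dazl at 10.4 or above and Sycp3 at 11.1 or above, while Amh lay at the floor throughout, between 1.54 and 1.60. Control mouse 6 stood apart: all 11 measured haploid spermatid markers read 7.56 to 12.3 on its array, against 2.15 to 4.49 on the other 17, which goes against its label, since germ cells of hpg mice normally stop before that stage. Differences at 12 h and 72 h are given without that mouse as well.

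With 1 probe set per gene, the one with the highest mean over the 18 arrays, all 10 genes were lower on average at all 3 times. The differences spanned -2.88 to -0.45 at 12 h (median -2.07), -3.44 to -1.70 at 24 h (median -2.67) and -3.01 to -1.09 at 72 h (median -1.76), all log2 and each against the controls of the set, whereas the median gene of the array differed by -0.0048, 0.038 and 0.012. Every FSH-treated array lay below every control array of its set for 8 of 10 genes at 12 h, 10 of 10 at 24 h and 10 of 10 at 72 h. The same held for 4.83%, 11.2% and 5.64% of all probe sets, but the genes were chosen on these differences and nothing is read from that contrast. In whole tissue, fewer cells of a type and less RNA per cell cannot be told apart.

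Transcripts lower by 2 or more were uncommon on the array. The genes were chosen for large differences, so the shares and places that follow are a description and nothing is read from them. Among the 3781 genes whose mean lay between 6 and 9 in both sets of controls, 9 (0.238%) were lower by 2 or more at 12 h, 36 (0.952%) at 24 h and 6 (0.159%) at 72 h. Of the 10 genes described here, 5 were lower by that much at 12 h, 9 at 24 h and 4 at 72 h. Ordered by how far they lay below controls among 12393 genes, Tmem37 and Rin2 came 1st and 2nd at 12 h, with Crebrf 8th, Coq8a 10th and Ddit4l 12th. At 24 h Rin2 came 3rd, Itga9 4th, Dapk1 8th and Antxr1 9th, and at 72 h Rin2 came 3rd, Tmem37 4th, Clca3a1 6th and Spsb1 9th. The genes placed between them that are not described here included Rgs11 at all 3 times (-2.52 at 12 h, -4.21 at 24 h and -3.82 at 72 h). Also among the first 12 at 12 h were Tnp2, Prm2 and Prm1, which encode spermatid proteins. Their differences of -2.41, -2.34 and -2.26 became -0.0075, -0.0068 and 0.010 without control mouse 6. Some of the 10 genes came much further down at some times. At 12 h Clca3a1 was 106th, Dapk1 137th, Antxr1 233rd and Itga9 1079th. Clca3a1 was 93rd at 24 h, and at 72 h Dapk1 was 95th, Ddit4l 123rd, Itga9 130th and Antxr1 187th.

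**Figure D1:**
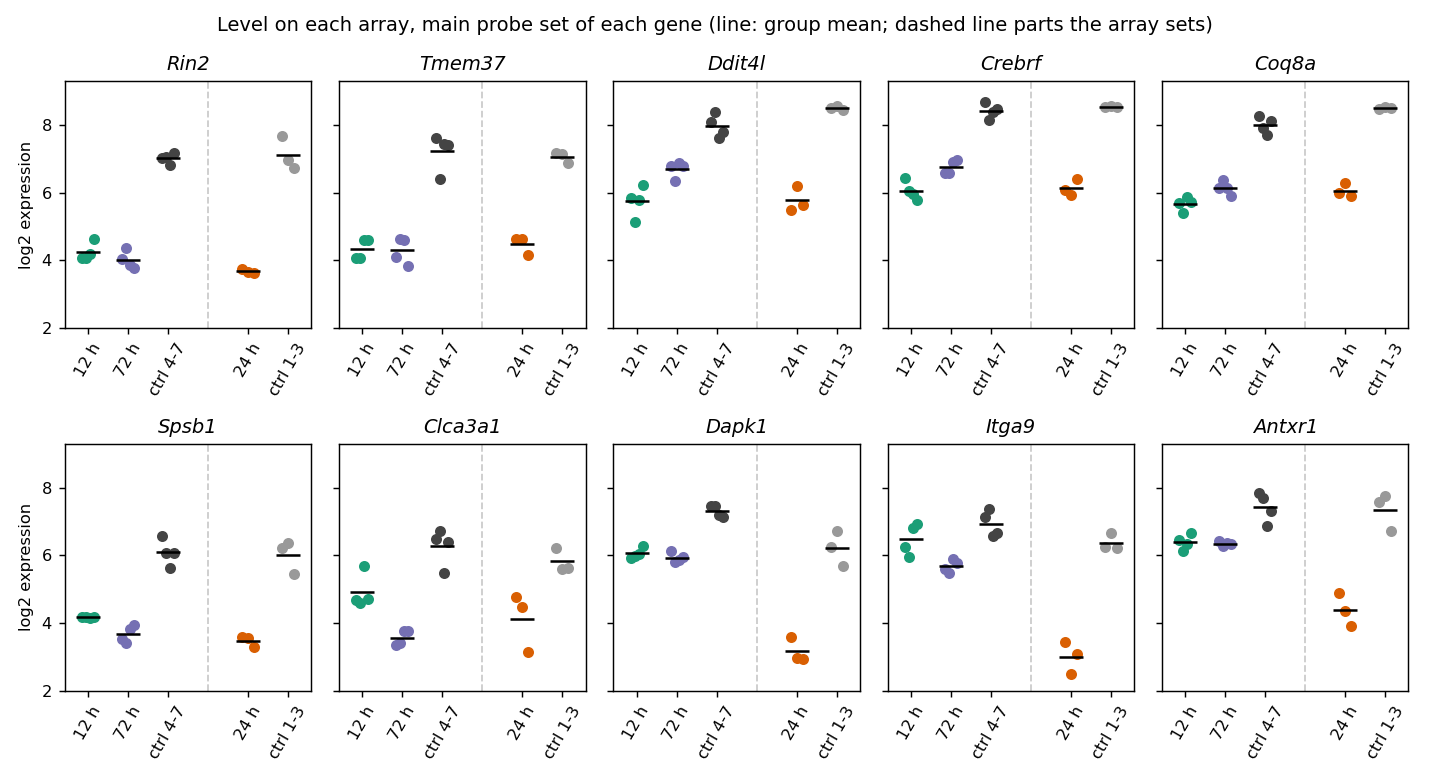
Level (log2 expression) of the main probe set of each of the 10 genes on each array, with a line at the group mean. The dashed line parts the set of the 12 h, 72 h and control 4 to 7 arrays from the set of the 24 h and control 1 to 3 arrays. For Rin2, for example, the treated arrays lie at 4.64 or below and the control arrays at 6.73 or above, and for Itga9 the 12 h arrays overlap the controls while the 24 h arrays do not.

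Rin2 encodes a Ras-binding activator of Rab5, the small GTPase of early endosomes, and has a single probe set (1426368_at). It read 4.06, 4.08, 4.18 and 4.64 in the 4 testes at 12 h and 4.04, 4.36, 3.85 and 3.76 at 72 h, against 7.02, 7.06, 6.81 and 7.16 in control mice 4 to 7. At 24 h it read 3.76, 3.67 and 3.63, against 7.69, 6.96 and 6.73 in control mice 1 to 3. All treated testes were well below all controls, and the treated values lay within about 1 unit of each other. The differences were -2.77 ± 0.19 at 12 h, -3.44 ± 0.22 at 24 h and -3.01 ± 0.19 at 72 h (log2 difference ± SE), or 6.84, 10.9 and 8.05-fold lower, and without control mouse 6 they were -2.84 at 12 h and -3.08 at 72 h.

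Tmem37 encodes a membrane protein related to the gamma subunits of voltage-gated calcium channels, and it too has a single probe set (1417611_at). It read 4.07, 4.07, 4.60 and 4.61 at 12 h and 4.11, 4.63, 4.60 and 3.84 at 72 h, against 7.63, 6.40, 7.44 and 7.42 in control mice 4 to 7. The 24 h testes read 4.63, 4.63 and 4.15, against 7.17, 7.14 and 6.88 in control mice 1 to 3. The groups did not overlap, although control mouse 5, at 6.40, lay about 1 unit under the other controls of its set. The transcript was 7.38-fold lower at 12 h (-2.88 ± 0.26), 6.04-fold lower at 24 h (-2.59 ± 0.30) and 7.59-fold lower at 72 h (-2.92 ± 0.26).

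Clca3a1 encodes a mouse member of the calcium-activated chloride channel regulators, secreted proteins that modulate chloride currents. Its main probe set (1417852_x_at) read 4.68, 4.60, 5.68 and 4.72 at 12 h and 3.35, 3.40, 3.75 and 3.77 at 72 h, against 6.47, 6.72, 5.49 and 6.39 in control mice 4 to 7. The 24 h testes read 4.75, 4.48 and 3.13, against 6.23, 5.60 and 5.63 in control mice 1 to 3. The 12 h group overlapped the controls, as mouse 3 of that group read 5.68 and control mouse 6 read 5.49, whereas the 24 h and 72 h groups did not. The difference was -1.35 ± 0.35 at 12 h, -1.70 ± 0.41 at 24 h and -2.70 ± 0.35 at 72 h. Without control mouse 6 it was -1.61 at 12 h and -2.96 at 72 h.

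The x in this probe set's name marks probes that may bind related transcripts, so reads of close relatives of Clca3a1 cannot be parted from its own. A further probe set carries the symbols of both Clca3a2 and Clca3a1 and was not counted among the 21. It read 5.78, 5.48, 6.06 and 5.65 at 12 h and 4.30, 4.10, 3.68 and 3.91 at 72 h, against 7.01, 7.57, 5.69 and 6.93 in control mice 4 to 7. In the other set it read 4.68, 4.44 and 4.65 at 24 h, against 6.65, 6.74 and 6.57 in control mice 1 to 3. Its values were lowest at 72 h. The other probe set of Clca3a1 alone (1417853_at) lay at the floor, between 2.34 and 2.66 on the 18 arrays, and gave no difference larger than 0.044 in size.

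Ddit4l encodes an inhibitor of mTORC1, the kinase complex that drives protein synthesis and growth. Its main probe set (1451751_at) read 5.83, 5.15, 5.78 and 6.24 at 12 h and 6.79, 6.34, 6.89 and 6.79 at 72 h, against 8.08, 8.40, 7.62 and 7.79 in control mice 4 to 7. The 24 h testes read 5.49, 6.18 and 5.63, against 8.50, 8.57 and 8.45 in control mice 1 to 3. All treated testes lay below all controls, and all 4 testes at 72 h lay above all 4 at 12 h. The differences from controls were -2.22 ± 0.22 at 12 h, -2.74 ± 0.26 at 24 h and -1.27 ± 0.22 at 72 h.

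A second bright probe set of Ddit4l (1439332_at) read 6.02, 6.14, 5.78 and 5.99 at 12 h and 6.94, 6.91, 7.06 and 6.94 at 72 h, against 7.96, 8.58, 8.11 and 8.04 in control mice 4 to 7, and 4.34, 4.81 and 3.92 at 24 h, against 8.27, 7.88 and 7.70 in control mice 1 to 3. Its differences of -2.19 at 12 h and -1.21 at 72 h were close to those of the main probe set, and at 24 h it was lower still (-3.60 ± 0.20). Across the 18 arrays, each taken relative to the controls of its set, the 2 probe sets of Ddit4l had a Pearson r of 0.95, a value that includes the common difference between treated and control arrays.

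Crebrf encodes a regulator that binds CREB3, a transcription factor of the endoplasmic reticulum, and promotes its loss. Its main probe set (1454967_at) read 6.45, 6.04, 5.96 and 5.78 at 12 h and 6.59, 6.57, 6.91 and 6.97 at 72 h, against 8.68, 8.14, 8.40 and 8.48 in control mice 4 to 7. The 24 h testes read 6.07, 5.93 and 6.40, against 8.52, 8.56 and 8.53 in control mice 1 to 3, and no treated testis reached a control. The differences were -2.37 ± 0.15 at 12 h, -2.40 ± 0.17 at 24 h and -1.66 ± 0.15 at 72 h. The other probe set (1435169_at), at a mean of 5.16 over the arrays, gave smaller differences of -1.53 ± 0.23, -1.63 ± 0.26 and -0.91 ± 0.23 with the same order of times, and had an r of 0.93 with the main probe set.

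Spsb1 encodes an adaptor with a SPRY domain and a SOCS box that brings target proteins to a Cullin5 ubiquitin ligase. The main probe set of Spsb1 (1420150_at) read 4.19, 4.17, 4.15 and 4.19 at 12 h and 3.52, 3.41, 3.83 and 3.94 at 72 h, against 6.59, 6.08, 5.63 and 6.08 in control mice 4 to 7. The 24 h testes read 3.58, 3.57 and 3.29, against 6.23, 6.38 and 5.44 in control mice 1 to 3. The 12 h testes were nearly equal to each other, and all treated testes lay below all controls. The transcript was 3.79-fold lower at 12 h (-1.92 ± 0.21), 5.81-fold lower at 24 h (-2.54 ± 0.24) and 5.35-fold lower at 72 h (-2.42 ± 0.21). The other 3 probe sets of Spsb1 had means of 2.41 to 2.76, at the floor, and gave differences between -0.45 and 0.091.

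Coq8a encodes a mitochondrial atypical kinase that is needed to make coenzyme Q, the electron carrier of the respiratory chain. The main probe set of Coq8a (1417066_at) read 5.69, 5.39, 5.88 and 5.71 at 12 h and 6.14, 6.37, 6.14 and 5.92 at 72 h, against 8.26, 7.92, 7.69 and 8.11 in control mice 4 to 7. The 24 h testes read 5.99, 6.27 and 5.90, against 8.48, 8.52 and 8.51 in control mice 1 to 3, whose values were almost the same in all 3 mice. The differences were -2.33 ± 0.13 at 12 h, -2.45 ± 0.15 at 24 h and -1.86 ± 0.13 at 72 h.

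The second probe set of Coq8a (1417067_s_at) did not follow the first. It was not at the floor, reading 4.32 to 5.59 on the 18 arrays, yet its differences were -0.13 ± 0.15 at 12 h, 0.31 ± 0.18 at 24 h and -0.15 ± 0.15 at 72 h. Its r with the main probe set was -0.029. The s in its name marks probes shared by more than 1 transcript. Which of the 2 follows the level of Coq8a RNA was not tested.

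Dapk1 encodes a calmodulin-regulated serine/threonine kinase of cell death and autophagy. The main probe set of Dapk1 (1426915_at) read 5.92, 5.99, 6.03 and 6.28 at 12 h and 6.12, 5.81, 5.86 and 5.95 at 72 h, against 7.45, 7.46, 7.19 and 7.12 in control mice 4 to 7. At 24 h it read 3.59, 2.96 and 2.95, near the floor, against 6.25, 6.73 and 5.67 in control mice 1 to 3. The treated testes lay below the controls in both sets, but the controls of the 2 sets themselves differed, with means of 6.22 in mice 1 to 3 and 7.31 in mice 4 to 7. The differences were -1.25 ± 0.19 at 12 h, -3.05 ± 0.22 at 24 h and -1.37 ± 0.19 at 72 h. Against all 7 controls pooled they were -0.78, -3.67 and -0.90. The other probe set (1427358_a_at), with a mean of 2.90, was lower by smaller amounts at each time (-0.54, -0.43 and -0.54).

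Itga9 encodes the alpha 9 chain of an integrin that pairs with beta 1 and binds tenascin C, VCAM1 and other matrix or surface proteins. Its main probe set (1460285_at) read 3.45, 2.48 and 3.09 at 24 h, against 6.23, 6.65 and 6.22 in control mice 1 to 3. At 12 h it read 6.26, 5.94, 6.81 and 6.92 and at 72 h 5.59, 5.48, 5.90 and 5.78, against 7.12, 7.38, 6.56 and 6.65 in control mice 4 to 7. The 12 h testes overlapped the controls, the 72 h testes lay below them, and the 24 h testes were at or near the floor. The differences were -0.45 ± 0.25 at 12 h, -3.36 ± 0.29 at 24 h and -1.24 ± 0.25 at 72 h. Without control mouse 6 the first was -0.57 and the last -1.36, and against all 7 controls pooled the 12 h difference was -0.21.

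Antxr1 encodes a membrane receptor for collagens, which is also a receptor of anthrax toxin. The main probe set of Antxr1 (1451446_at) read 4.90, 4.35 and 3.92 at 24 h, against 7.57, 7.76 and 6.71 in control mice 1 to 3. At 12 h it read 6.46, 6.14, 6.32 and 6.65 and at 72 h 6.41, 6.26, 6.38 and 6.33, against 7.85, 7.69, 6.86 and 7.32 in control mice 4 to 7. No treated testis overlapped the controls of its set, and the 72 h testes differed by at most 0.15 from each other. The differences were -1.04 ± 0.25 at 12 h, -2.96 ± 0.29 at 24 h and -1.09 ± 0.25 at 72 h, a 2.05-fold, 7.77-fold and 2.12-fold lower level.

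Dimmer probe sets of Itga9 and Antxr1 did not show a 24 h difference of that size. For Itga9, 1420860_at read 4.68, 5.22 and 4.45 at 24 h, against 4.38, 4.72 and 4.53 in control mice 1 to 3 (0.24 ± 0.16), and 1450029_s_at, with a mean of 3.30, was lower by a small amount (-0.26 ± 0.09). The probe set 1420860_at was not at the floor, reading 3.90 to 5.22 on the 18 arrays. Which probe set follows the level of Itga9 RNA was not tested. For Antxr1, 1431995_at read 2.59, 2.93 and 2.61 at 24 h, against 2.45, 2.46 and 2.49 in the controls (0.24 ± 0.07), all at the floor. Over the arrays these had r values of -0.55, 0.63 and -0.71 with the main probe sets of their genes. Of the 11 probe sets other than the main ones, 7 had a mean under 3.5, and the median difference of the 11 was -0.11 at 12 h, -0.10 at 24 h and -0.12 at 72 h.

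**Figure D2:**
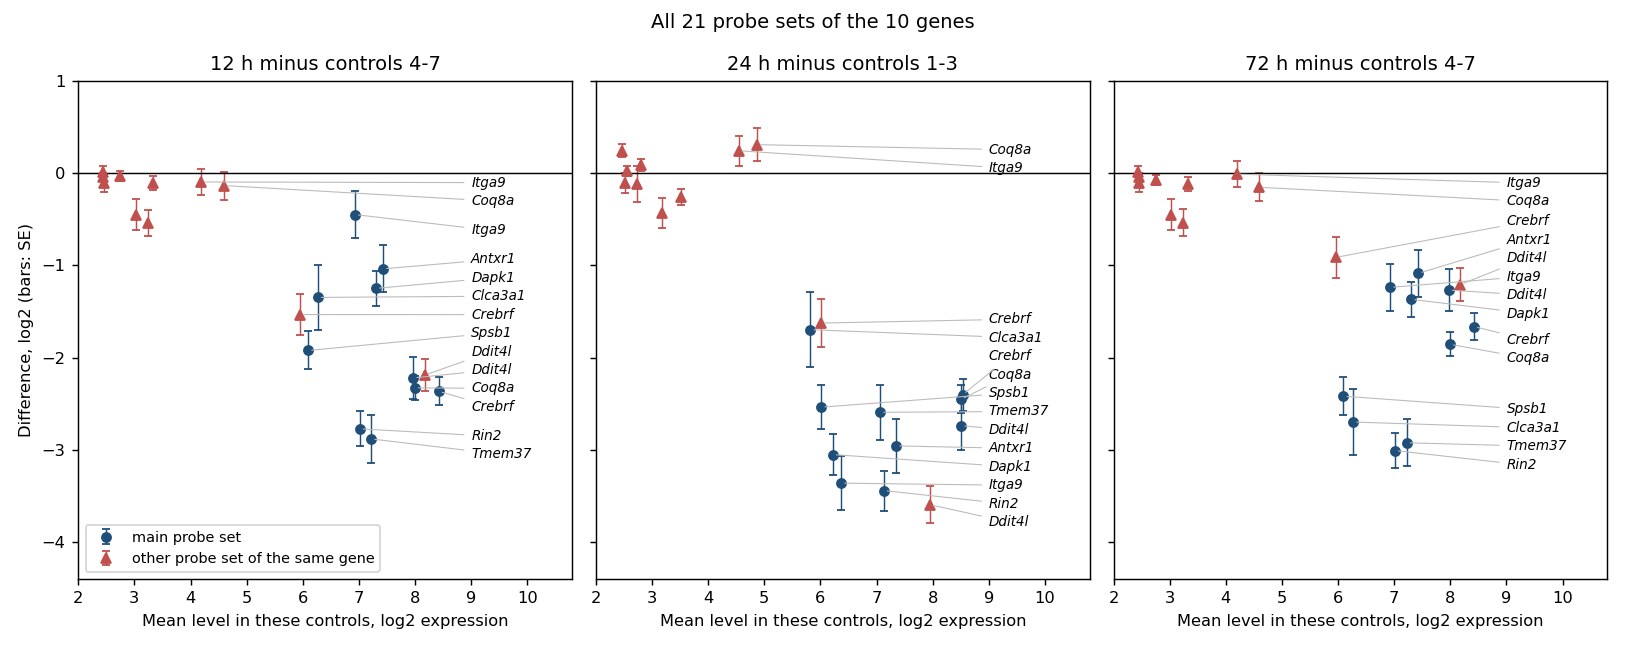
Difference from the controls of the set (log2, bars are SE) of all 21 probe sets against the mean level in those controls (log2 expression), at 12 h, 24 h and 72 h. Circles are the main probe sets and triangles the others, with names for those above a level of 4. The triangles below a level of 5 lie between -0.54 and 0.31, while those of Ddit4l and Crebrf lie with the circles.

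Leaving out control mouse 6 kept all 10 genes below the controls at 12 h and 72 h. Without it the difference at 12 h was -2.81 for Tmem37, -2.34 for Ddit4l, -2.38 for Crebrf, -2.43 for Coq8a, -2.08 for Spsb1, -1.29 for Dapk1 and -1.23 for Antxr1. At 72 h it was -2.85 for Tmem37, -1.39 for Ddit4l, -1.67 for Crebrf, -1.96 for Coq8a, -2.57 for Spsb1, -1.41 for Dapk1 and -1.28 for Antxr1.

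The mean differences followed several time courses. The direct comparison of 72 h with 12 h needs no controls and lies within 1 set of arrays. It is not independent of how the genes were chosen, because the arrays of both times entered the differences from controls. Choosing a gene for low values at 12 h can by itself favour a higher value at 72 h, and the reverse for low values at 72 h. Ddit4l, Crebrf and Coq8a came 12th, 8th and 10th at 12 h and 123rd, 43rd and 27th at 72 h. The adjusted p-values below do not allow for that choice. In limma's moderated test, adjusted over 22626 probe sets, 1.37% of all probe sets were higher and 0.999% lower at 72 h. Ddit4l was higher at 72 h than at 12 h by 0.95 ± 0.22 with 1451751_at (adjusted p = 0.0379) and by 0.98 ± 0.18 with 1439332_at (adjusted p = 0.00823). Crebrf was higher by 0.70 ± 0.15 with its main probe set (adjusted p = 0.0236), and by 0.62 ± 0.23 with the other, which did not pass (adjusted p = 0.241).

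The limma calls of Ddit4l and Crebrf were close to the threshold. Over the alternative settings and the fits that each left out 1 mouse, the adjusted p for the main probe set of Ddit4l ran between 0.018 and 0.109 and that of Crebrf between 0.00787 and 0.0911, with the difference positive in all of them. Leaving out the second 12 h mouse gave the smallest difference for Ddit4l (0.75), and leaving out the fourth 12 h mouse the smallest for Crebrf (0.61), each without a call. Coq8a had a difference of 0.47 ± 0.13 and did not pass the limma test (adjusted p = 0.0846, 95% interval 0.19 to 0.75). For these 3 genes every 72 h array lay above every 12 h array, as did 4.41% of all probe sets. At 72 h all 3 were still below the controls, with differences of -1.27, -1.66 and -1.86.

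Another 3 genes had every 72 h array below every 12 h array, as did 4.03% of all probe sets, and none of them passed the limma test. Clca3a1 had a difference between 72 h and 12 h of -1.35 ± 0.35 (adjusted p = 0.0631, 95% interval -2.11 to -0.60), and the adjusted p ran between 0.0206 and 0.209 over the alternatives. Itga9 had -0.79 ± 0.25 (adjusted p = 0.15, 95% interval -1.33 to -0.25) and Spsb1 -0.50 ± 0.21 (adjusted p = 0.348, 95% interval -0.94 to -0.05) by limma. Rin2, Tmem37, Dapk1 and Antxr1 had differences between -0.24 and -0.04 with limma adjusted p of 0.855 or more, and their 95% intervals were -0.64 to 0.17 for Rin2, -0.59 to 0.51 for Tmem37, -0.53 to 0.29 for Dapk1 and -0.59 to 0.50 for Antxr1.

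**Figure D3:**
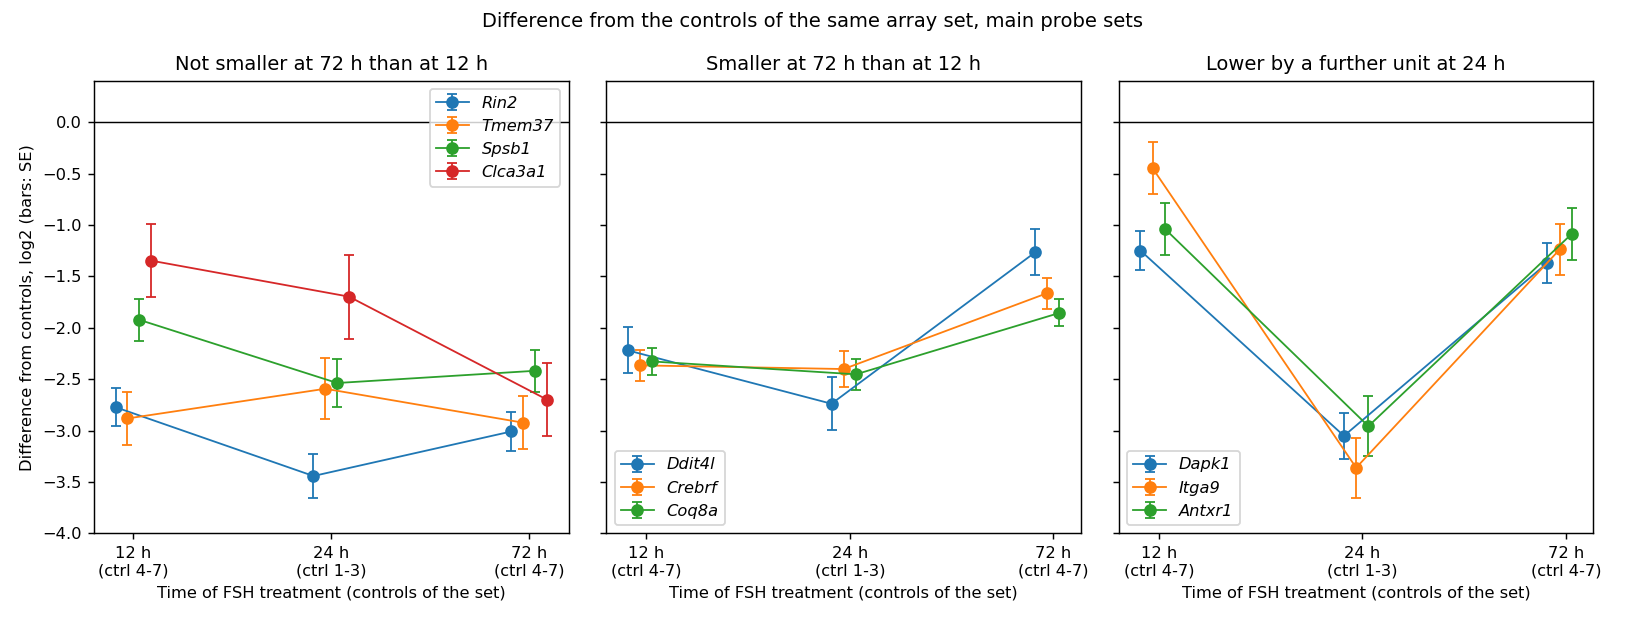
Difference of each gene's main probe set from the controls of the same set (log2, bars are SE) at 12 h, 24 h and 72 h. In the left panel the difference at 72 h is not smaller in size than that at 12 h, and all are -1.35 or lower, in the middle panel the difference at 72 h is the smallest in size, and in the right panel the difference at 24 h is near -3 and those at 12 h and 72 h lie between -1.37 and -0.45.

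The main probe sets of Dapk1, Itga9 and Antxr1 had a difference at 24 h that was lower by over 1 than their differences at both 12 h and 72 h. Rin2, Ddit4l, Crebrf, Coq8a and Spsb1 also had their largest difference at 24 h, by smaller margins over at least 1 of the other times. The difference at 24 h minus that at 12 h, each from the controls of its own set, was -1.80 ± 0.29 for Dapk1, -2.91 ± 0.38 for Itga9 and -1.92 ± 0.39 for Antxr1, against values between -1.41 for the second probe set of Ddit4l and 0.29 for Tmem37 in the bright probe sets of the other genes. These rest on the differences that chose the genes and carry no test. The 24 h arrays also differed from those of control mice 1 to 3 in technical measures. Their share of values under 3 was 30.0% to 32.7%, against 33.0% to 35.2%, and their 3' minus 5' difference of Gapdh was -0.63 to -0.50, against -0.43 to -0.16.

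Some cell type markers differed at 24 h as well. At that time limma called 8.45% of all genes lower and 6.38% higher. Of 15 germ cell markers 6 were called lower and none higher at 24 h by limma (median -0.68), with summed levels of 13.1 to 13.7 at 24 h, against 13.5 to 13.8 in control mice 1 to 3, on the log2 scale. Of 14 fibroblast and stroma markers 4 were called lower and none higher (median -0.49), with summed levels of 12.8 to 13.4 at 24 h, against 13.7 to 14.0 in those controls, and all 14 had means above 3 in both groups. Endothelial markers summed to 8.38 to 9.26 at 24 h, against 8.90 to 9.46, and Sertoli markers to 15.1 to 15.3, against 15.2 to 15.3, with 3 of 15 Sertoli markers called higher and 2 lower. Of 12 Leydig cell markers 4 were called higher and 2 lower (median -0.19), with summed levels of 13.3 to 13.6 at 24 h, against 13.3 to 13.4. The steroidogenic genes Star and Cyp17a1 averaged 7.78 and 11.7 at 24 h, against 5.28 and 7.11 in control mice 1 to 3. Star and Cyp17a1 were also higher on average at 12 h, at 8.15 and 11.2, against 5.61 and 8.38 in control mice 4 to 7. At 72 h they averaged 6.48 and 8.79, and neither was called higher. Of the 12 Leydig cell markers 3 were called higher and 2 lower at 12 h, and 0 higher and 3 lower at 72 h. Macrophage markers (14) and peritubular myoid markers (14) each had 1 called higher and 1 lower. At 12 h and 72 h, 2 and 3 germ cell markers and 2 and 2 stroma markers were called lower, against 2.76% and 3.03% of all genes. The part of these shifts in the 24 h levels of Dapk1, Itga9 and Antxr1 was not tested. With 1 mouse left out at a time the differences stayed between -3.33 and -2.80 for Dapk1, -3.58 and -3.10 for Itga9 and -3.28 and -2.72 for Antxr1.

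The genes most like each member were sought by Pearson r over the 18 arrays, each relative to the controls of its set. These values are descriptions and contain the common treated-to-control difference. Several members were among the 2 nearest matches of another member. Tmem37 was most like Rin2 (r = 0.95) and Coq8a (0.95), Rin2 like the splicing kinase gene Clk1 (0.97) and Coq8a (0.97), and Spsb1 like the phosphatase gene Ctdsp2 (0.97) and Rin2 (0.97). Crebrf was most like Stard8 (0.97) and Coq8a (0.97), Coq8a like the steroid dehydrogenase gene Hsd17b11 (0.97) and Crebrf (0.97), and Ddit4l like Trim47 (0.96) and Abcg1, a sterol exporter (0.96).

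Dapk1 and Antxr1 were each other's nearest match (0.98). Their next were Denn2b, as the annotation spells it, for Dapk1 (0.96) and Luc7l3 for Antxr1 (0.97), while Itga9 was most like Rbm43 (0.96) and the chromatin remodelling gene Bptf (0.96). Clca3a1 had the loosest matches, Txnip (0.93) and Deptor, an inhibitor of mTOR complexes (0.92). Among the members themselves the lowest r was that of Tmem37 with Itga9 (0.54).

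Promoter sequence was taken from RefSeq on GRCm38.p6, which had windows for 9 of the 10 genes, 2 of them for Coq8a, and none for Antxr1. The 250 bases before each annotated start were searched on both strands for the cyclic AMP response element TGACGTCA, the shorter TGACG within it, the FoxO core GTAAACA, the AP-1 motif TGAGTCA, the E-box CACGTG and the steroidogenic factor 1 motif CAAGGTCA. Of the 9 genes, 0 held TGACGTCA, GTAAACA or CAAGGTCA, which 1.55%, 3.17% and 1.33% of 32851 windows of that length held. TGACG was present in 3, Rin2 and Crebrf among them, against 17.8% of all windows, TGAGTCA in 2 (Tmem37 and Coq8a), against 4.46%, and CACGTG in 1 (Crebrf), against 6.02%. For Rin2, Tmem37, Dapk1, Itga9 and the second start of Coq8a, 0 of the 250 bases lay upstream of the annotated span of the gene. Those windows lay within the annotated gene. A match is a description of letters and not a bound site.

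Stretches around some of these matches are shown, with capitals for the match, 5' to 3' on the strand of the gene. The stretches of Rin2, Tmem37 and the second start of Coq8a lie within the annotated span of the gene, not upstream of it. In Rin2 the TGACG motif lies on the opposite strand and so reads CGTCA, 28 bases before the start, at chr2:145786076-145786105 on the plus strand. The AP-1 motif lies 103 bases before the start in Tmem37 (chr1:120073866-120073895, minus strand) and 13 bases before the second annotated start of Coq8a (chr1:180193486-180193515, minus strand).
Rin2: gaagaccttctaCGTCAgctgctggcagag
Tmem37: ccagggcgctgcTGAGTCAgcgtaacccga
Coq8a, second start: ttaaggacagggtgaccTGAGTCAcaggta

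Crebrf, Ddit4l and Coq8a, the 3 genes whose 72 h arrays all lay above the 12 h arrays, are shown over the bases upstream of the annotated gene. Crebrf (chr17:26715400-26715593, plus strand, 194 bases) holds an E-box that begins 125 bases before the start and overlaps the TGACG motif at 121 bases, and a further E-box 14 bases before the start lies outside the stretch shown. Ddit4l (chr3:137623422-137623671, plus strand) and Coq8a at its first start (chr1:180196021-180196270, minus strand) held 0 of the 6 motifs in 250 bases.
Crebrf: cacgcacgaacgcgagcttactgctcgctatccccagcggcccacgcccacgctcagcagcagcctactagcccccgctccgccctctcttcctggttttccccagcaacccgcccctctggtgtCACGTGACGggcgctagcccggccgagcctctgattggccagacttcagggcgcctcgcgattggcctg
Ddit4l: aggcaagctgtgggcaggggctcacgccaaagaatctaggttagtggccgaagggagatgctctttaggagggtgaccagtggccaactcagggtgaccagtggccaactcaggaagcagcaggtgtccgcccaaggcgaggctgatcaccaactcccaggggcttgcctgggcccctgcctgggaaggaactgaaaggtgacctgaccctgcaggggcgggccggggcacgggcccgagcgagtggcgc
Coq8a, first start: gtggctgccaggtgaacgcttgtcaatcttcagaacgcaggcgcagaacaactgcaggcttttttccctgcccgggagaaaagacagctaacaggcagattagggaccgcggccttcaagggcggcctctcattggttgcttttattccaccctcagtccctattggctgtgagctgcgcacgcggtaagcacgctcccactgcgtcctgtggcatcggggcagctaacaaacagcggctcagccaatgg

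The relatives and partners of the 10 genes were followed in 12 lists, in which 193 genes other than the members themselves were measured. The lists were drawn up with earlier results of these data known, so the counts in them are not independent of these data. Here the limma test is used, adjusted over all probe sets. At 12 h, 24 h and 72 h, 2.76%, 8.45% and 3.03% of all genes were called lower and 3.52%, 6.38% and 4.23% higher, and between 72 h and 12 h 1.1% were called lower and 1.76% higher. In an alternative fit, control mice 1 to 3 were paired by number with the 24 h mice (called the pairing below). The labels state no such pairing. The count of probe sets called at 24 h was then 4827 in place of 3023.

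Genes that FoxO factors and fasting induce, among which autophagy genes and brakes on growth are prominent, were called lower more than higher. That list too was drawn up with earlier results known, so its counts are a description, and a role of FoxO was not tested. Of 27 measured, 8 were lower and 0 higher at 12 h, 8 lower and 1 higher at 24 h and 5 lower and 1 higher at 72 h, with medians of -0.29, -0.33 and -0.26. Counts at 12 h were the same without control mouse 6, at 72 h they were 3 lower and 1 higher without it or without the second 24 h mouse, and at 24 h 7 lower and 1 higher without the second 24 h mouse and 9 lower and 1 higher with the pairing. Txnip, an inhibitor of thioredoxin and of glucose uptake, fell at all 3 times, with differences of -0.89 ± 0.14, -1.46 ± 0.16 and -1.50 ± 0.14 (limma adjusted p = 0.00104, 4.78e-05 and 1.47e-05).

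Gabarapl1, which encodes a protein of the autophagosome membrane, averaged 8.54 at 12 h and 9.22 at 72 h, against 9.55 in control mice 4 to 7, and 8.83 at 24 h, against 9.50 in control mice 1 to 3. It fell at 12 h by 1.01 ± 0.09 (limma adjusted p = 1.24e-05) and at 24 h by 0.67 ± 0.11 (0.00108). Like Ddit4l and Crebrf it was higher at 72 h than at 12 h, by 0.68 ± 0.09 (limma adjusted p = 0.00127), and at 72 h it differed from controls by -0.33 ± 0.09, with an adjusted p of 0.0485 that became 0.0895 without control mouse 6, 0.0579 without the second 24 h mouse and 0.064 with the pairing. Map1lc3b, another autophagosome gene, fell at 12 h (-0.66 ± 0.12) and 24 h (-0.82 ± 0.14, limma adjusted p = 0.00406 and 0.00173), and differed by -0.04 ± 0.12 at 72 h (0.941).

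Cdkn1b, an inhibitor of the cell cycle, fell at 12 h (-0.77 ± 0.18) and 24 h (-1.65 ± 0.21, limma adjusted p = 0.0212 and 0.00018). Pdk4, which restrains pyruvate oxidation, fell by 1.43 ± 0.31 at 12 h (0.013), and its call at 72 h (-1.14 ± 0.31, limma adjusted p = 0.043) was lost when the second 24 h mouse was left out of the fit (0.0539) and with the pairing (0.0527). Its means of 3.15 at 12 h and 3.44 at 72 h were near the floor, against 4.58 in control mice 4 to 7. At 24 h Pdk4 was not called (-0.61 ± 0.36, limma adjusted p = 0.256). Klf15, a transcription factor of fasting metabolism, fell by 0.97 ± 0.15 at 12 h (limma adjusted p = 0.00133) and rose by 0.81 ± 0.15 between 12 h and 72 h (0.0114). Between 72 h and 12 h, 4 genes of the list were higher and 1 lower.

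**Figure D4:**
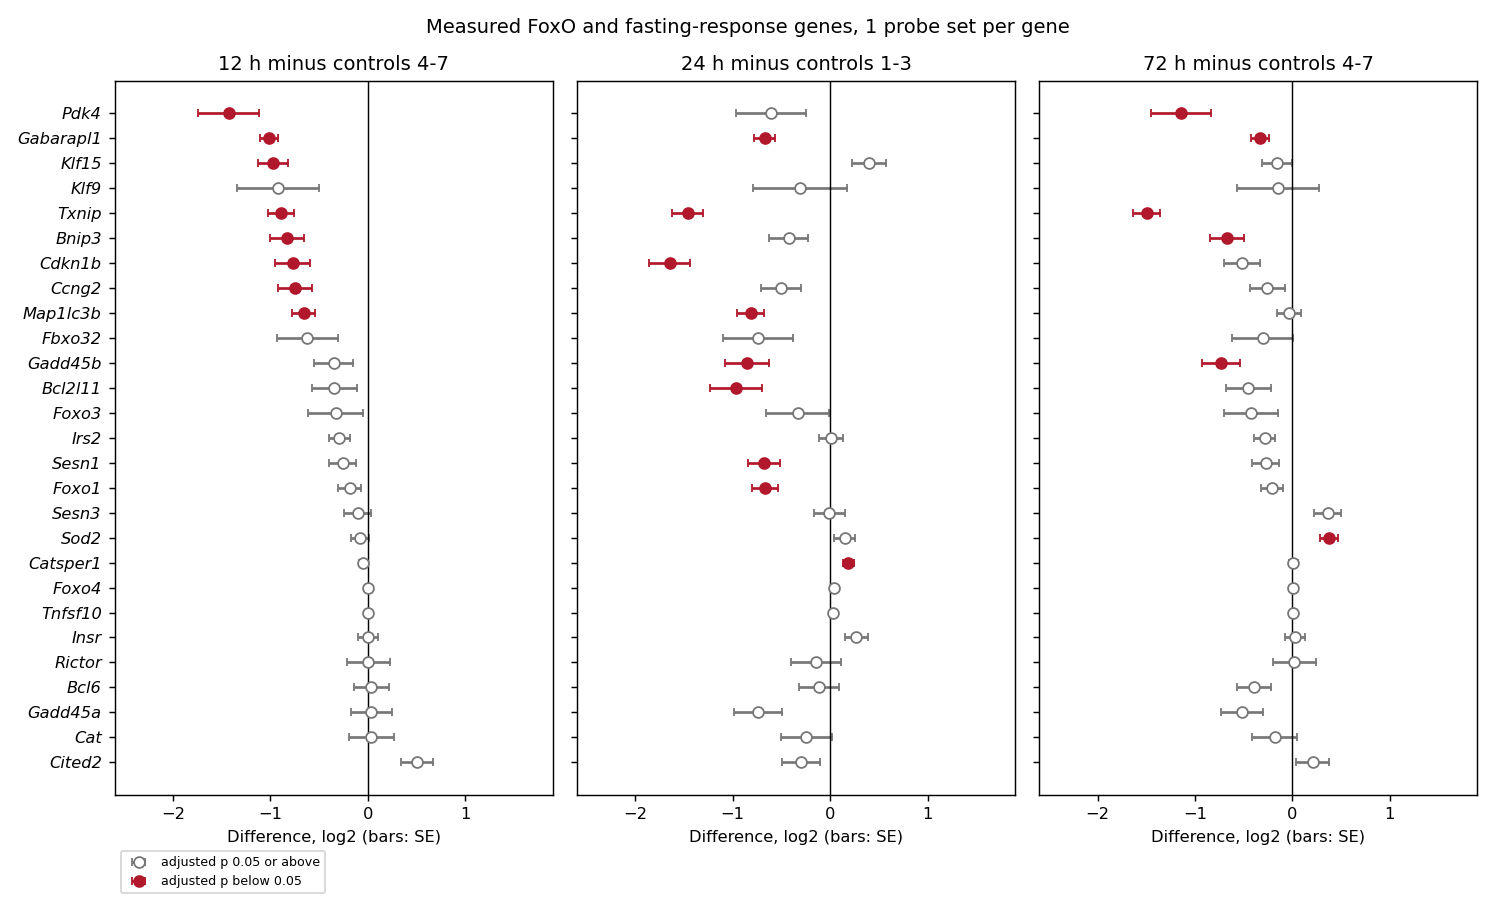
Difference from the controls of the set (log2, bars are SE) of the 27 measured FoxO and fasting-response genes, ordered by their 12 h difference. Filled points have a limma adjusted p below 0.05; at 12 h all 8 of them, for example Gabarapl1 at -1.01, lie below 0.

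Several matrix partners of Antxr1 rose at 12 h and 72 h. Of 14 measured relatives and ligands of Antxr1, 3 were called higher and 1 lower at 12 h, 0 higher and 3 lower at 24 h and 7 higher and 0 lower at 72 h, and without control mouse 6 the 72 h count was 5 higher. With control mice 1 to 3 paired with the 24 h mice the 24 h count was 3 higher and 3 lower, with Col4a1 and Col4a2 among the higher ones (0.76 and 0.73, limma adjusted p = 0.0402 and 0.0132, against 0.0912 and 0.059 unpaired). Col4a1, a chain of basement membrane collagen, averaged 10.4 at 12 h and 9.13 at 72 h, against 7.47 in control mice 4 to 7, and rose by 2.95 ± 0.25 at 12 h and 1.65 ± 0.25 at 72 h (limma adjusted p = 6.6e-06 and 0.000944). Col4a2 rose by 1.82 ± 0.21 and 1.10 ± 0.21 (limma adjusted p = 9.03e-05 and 0.00516). At 72 h the fibrillar collagen gene Col1a1 rose by 1.65 and Col6a3 by 1.36 (limma adjusted p = 0.0102 and 0.00835), and Lama1, a laminin chain, rose by 0.85 at 12 h (0.00439). Mmp2, a matrix metalloprotease, fell at 12 h (-1.20 ± 0.24) and 24 h (-1.41 ± 0.27, limma adjusted p = 0.00663 and 0.00404), and the 12 h call was lost against all 7 controls pooled (-0.63, adjusted p = 0.383). Antxr2, the closest relative of Antxr1, differed by -1.57 at 24 h (limma adjusted p = 0.0438, or 0.169 without the second 24 h mouse and 0.0517 without control mouse 6), and the Wnt receptor Lrp6 fell by 1.65 (0.00342). Peritubular myoid markers, 14 measured and none of them in the Antxr1 list, had 3 called higher and 0 lower at 12 h (median 0.38, 8 higher at an unadjusted p under 0.05) and 1 higher at 72 h (median 0.031), with summed levels of 13.0 to 13.3 at 12 h and 12.7 to 13.0 at 72 h, against 12.3 to 13.0 in control mice 4 to 7. Stroma markers, which share Col1a1 and Col1a2 with the list, had 1 called higher at 72 h. Their part in the matrix genes was not tested.

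The mTORC1 list, to which Ddit4l belongs, had 1 gene higher and 1 lower of 21 measured at 12 h, 5 lower and 0 higher at 24 h, and 2 in each direction at 72 h. Txnip is counted both here and in the FoxO list. It was the gene called lower at 12 h and was among those called lower at 24 h and 72 h. The 24 h count was 2 lower and 0 higher without the second 24 h mouse, and 7 lower and 2 higher with the 24 h mice paired with controls. Deptor, like Ddit4l an inhibitor of mTOR, fell by 1.12 at 72 h (limma adjusted p = 0.0036), and Tsc1, a subunit of a further brake on mTORC1, fell by 0.99 at 24 h (0.0264, or 0.0685 without the second 24 h mouse). Ddit4, the closest relative of Ddit4l, was outside the rule for naming and is given as the relative, chosen after its values were seen. It rose by 0.91 at 12 h and 0.99 at 72 h (limma adjusted p = 0.00945 and 0.0055), the opposite direction to Ddit4l at those times. At 24 h limma called 0 genes of the list higher, and the value of Ddit4 at that time is not reported here.

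Among 20 kinases and autophagy partners of Dapk1, 1 was higher and 1 lower at 12 h, 1 higher and 4 lower at 24 h, and 2 lower at 72 h with 0 higher. Without the second 24 h mouse the 24 h count was 3 lower and 0 higher. Dapk2, the closest relative, was called lower at all 3 times (-0.74 ± 0.16, -0.88 ± 0.18 and -0.99 ± 0.16, with limma adjusted p = 0.0111, 0.00549 and 0.00146), at levels of 2.52 to 3.83 near the floor. Prkd1, which encodes protein kinase D1, fell by 1.18 at 24 h (limma adjusted p = 0.00148). In the list of CREB3 and its partners 1 of 13 was higher at 12 h, 4 were lower at 24 h, led in size by Creb3l2 at -1.68 (limma adjusted p = 0.0468, or 0.0761 without the second 24 h mouse and 0.0538 without control mouse 6), and 1 was higher at 72 h. The 24 h count of that list was 2 lower without the second 24 h mouse.

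Other integrins and their ligands showed few calls. Of 20 integrin subunits other than Itga9, 1 was higher at 12 h, Itga6 by 0.76 (limma adjusted p = 0.043, or 0.119 without control mouse 6 and 0.0519 without the second 24 h mouse), 1 was higher at 24 h and 0 were called at 72 h, where 2 had an unadjusted p under 0.05. At 24 h, 3 were higher with the 24 h mice paired with controls and 0 without the second 24 h mouse. Of 13 ligands of the alpha 9 integrin, Vcam1 differed by -1.13 at 12 h (limma adjusted p = 0.0187, or 0.0579 without control mouse 6 and 0.0539 with pooled controls) and rose by 1.39 between 12 h and 72 h (0.0106). Vegfa rose by 0.85 at 12 h (limma adjusted p = 0.00388) and differed by -0.93 between 72 h and 12 h (0.00476). At 24 h 0 ligands were called, or 1 lower with the pairing.

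The remaining lists had few calls. Of 8 CLCA, anoctamin and other chloride channel genes besides Clca3a1, 0 were called at 12 h (2 lower at an unadjusted p under 0.05). At 24 h 1 was higher and 2 lower, and Clcn3 fell by 0.94 (limma adjusted p = 1.01e-05, or 0.0578 with pooled controls). The higher one was Clca1, by 0.16, with both means at the floor (2.73 at 24 h and 2.57 in control mice 1 to 3). At 72 h 1 was lower. That was Clca3a2, at -1.09 ± 0.27 (limma adjusted p = 0.028), whose levels of 3.16 at 72 h and 4.25 in control mice 4 to 7 came from a different probe set than those of Clca3a1. At 12 h it differed by -0.86 (limma adjusted p = 0.094), and without control mouse 6 it was called (-1.17, adjusted p = 0.00494). With the pairing 3 of the list were higher and 2 lower at 24 h. Of 20 genes around the SPRY and SOCS box ligases, Spsb4 rose by 0.99 at 12 h (limma adjusted p = 0.00874) and 1 was lower at 24 h, or 2 without control mouse 6 or the second 24 h mouse and 3 with the pairing. Of 22 calcium channel subunits, 0 were called at 12 h, also at an unadjusted p under 0.05, 1 was higher and 2 lower at 24 h, and 1 was lower at 72 h. The 24 h count was 4 higher and 2 lower with the pairing, and 1 lower without the second 24 h mouse.

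Of 8 genes of coenzyme Q synthesis other than Coq8a, limma called 0 at 12 h and 72 h, where 0 and 1 had an unadjusted p under 0.05, and 1 at 24 h (Coq7, -0.51, adjusted p = 0.0443, or 0.124 without the second 24 h mouse and 0.0517 without control mouse 6). With the pairing 1 further gene was higher at 24 h. Of 11 genes around Rin2 and Rab5, limma called 0 at any time, with 1, 4 and 1 at an unadjusted p under 0.05 at 12 h, 24 h and 72 h, and against all 7 controls pooled 5 were called at 24 h. With control mouse 6 or the second 24 h mouse left out, 1 was called lower at 24 h, and with the pairing 1 was higher and 1 lower.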

How the data were processed

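RNA of whole testes was hybridised to 1-colour Affymetrix MOE430A arrays, 1 mouse per array. The deposited table held log2 expression values made by the authors. Per the submitters' processing notes RMA and GCRMA were used, with no versions. Which of them made these values is not stated there, and the genome build is not given in the sources used here. All values were used as deposited, without further normalisation. They ran between 1.04 and 15.2, and the number of arrays limits the precision.

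Of 22690 probe sets, 64 array control probe sets were left out and 22626 were tested. Of these, 20380 carried 1 gene symbol, 691 several and 1555 none, and only those with 1 symbol were named. Groups came from the labels, which give the mice as individuals. A linear model with 5 group means (13 residual degrees of freedom) was fitted in limma (3.58.1, R 4.3.3), with empirical Bayes moderation and Benjamini-Hochberg adjustment over all probe sets, and the threshold was an adjusted p of 0.05. Differences are the first group minus the second, with the moderated SE. The procedure was tested on simulated data.

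The members and the gene lists were chosen with earlier results of these data known. No p-value is given for members against controls. In each list the genes that could be named were up to 4 with the smallest p at the contrast with most calls, and any gene called with a difference of at least 1 in size; for likeness, the 2 genes with the highest r. Markers of other cell types were summed on the linear scale and given as log2. Promoter motifs were searched in RefSeq sequence (GRCm38.p6), and 1 stretch with a match is not reported here.

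The labels number the 24 h mice and control mice 1 to 3 alike but state no pairing between them. Deviations of same-numbered arrays from their group means had correlations of 0.18, 0.34 and 0.41. Arrays with different numbers were not compared, so a pairing was not shown. Alternatives were pooled controls, each set of arrays fitted alone, quantile normalisation, only probe sets above the median level, an intensity trend with a robust prior, a replicate block, the mean over all probe sets of a gene, and leaving out each mouse in turn. For the lists, leaving out control mouse 6 or the second 24 h mouse and the replicate block, and for all probe sets the replicate block within the 24 h set, were chosen after seeing the data.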

Additional observations from a re-analysis of the deposited data

Results flagged for a closer look

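A value far from the others of its group was looked for in 84 groups of 4 or 7 arrays. These were the 12 h mice, the 72 h mice, control mice 4 to 7 and all 7 controls, for each probe set. The 24 h mice and control mice 1 to 3 were not examined alone. Chance alone would mark about 1 in 20 separate groups, but control mice 4 to 7 are also among the 7 controls. In all, 8 such values were found. In bright probe sets these were the third 12 h mouse for Clca3a1, at 5.679 when the nearest other 12 h value was 4.723, and control mouse 5 for Tmem37, at 6.401 when the nearest other control of its set read 7.419. The second probe set of Coq8a had control mouse 6 at 4.813 within its set and control mouse 1 at 5.259 among all 7 controls. The rest were dim probe sets. For Spsb1 they were control mouse 4 at 2.708 (1449752_at), control mouse 4 at 3.759 (1428472_at) and control mouse 7 at 2.794 (1421474_a_at), and for Itga9 control mouse 1 at 3.79 (1450029_s_at).

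Differences between times stood out for several genes. Between 72 h and 12 h, Ddit4l differed by 0.9534 with 1451751_at and 0.9819 with 1439332_at, and Crebrf by 0.7028, each past the limma threshold. The arrays of both times entered the choice of the genes, so this is not independent of it, and over the alternatives and left-out mice the call was lost in 13 for the main probe set of Ddit4l and in 7 for Crebrf. Between 24 h and 12 h, each relative to its own controls, Dapk1 differed by -1.803, Itga9 by -2.913, Antxr1 by -1.921 and Ddit4l, with 1439332_at, by -1.406. These rest on the values that chose the genes, and the difference carries no test here. The 24 h mice and the 12 h mice were also measured in different sets of arrays.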

How the results depend on the processing

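Of the values of the 10 genes under the alternatives and with each mouse left out, 932 kept their size or call, 40 moved by more than 1 SD, 5 changed sign without a call, 20 lost a call, 5 gained one and 0 reversed a called direction. The 5 were the difference between 72 h and 12 h of Tmem37, 0.048 and 0.049 without the third or the fourth 12 h mouse and 0.021 and 0.11 without the first or the fourth 72 h mouse, and of Antxr1, 0.038 without the fourth 12 h mouse. Averaging all probe sets of a gene gave -3.17 for Ddit4l at 24 h, larger than the main -2.74, and smaller differences from controls in the following: -1.95, -2.01 and -1.29 at 12 h, 24 h and 72 h for Crebrf, -1.23, -1.07 and -1.004 for Coq8a, -0.63, -0.67 and -0.76 for Spsb1, -0.70, -0.84 and -1.37 for Clca3a1, -0.90, -1.74 and -0.95 for Dapk1 and -0.51, -1.36 and -0.54 for Antxr1, and for Itga9 -1.13 at 24 h and -0.46 at 72 h. That mean could not be taken for Rin2 and Tmem37, which have 1 probe set, and fitting each set alone gives no 24 h minus 12 h value.

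Over all probe sets, calls with the replicate block over all numbers were 255 at 12 h (1211 without it) and 244 at 72 h (1388), where the block rests on control mouse 4 alone, 2098 at 24 h (3023), 324 for 72 h against 12 h (535) and 52 for 24 h minus 12 h (198). The replicate block within the 24 h set gave 4827 at 24 h. For numbers shared by the 72 h and 12 h mice, the r of the deviations was 0.01 to 0.13. Pooled controls gave 8137 at 24 h (5283 higher, against 1381 of 3023) and 9098 for 24 h minus 12 h, and the 24 h set alone gave 393. With probe sets above the median level 741 of 2435 calls at 24 h were higher.

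With 1 mouse left out, calls ran between 877 and 1278 at 12 h, 1678 (without control mouse 1) and 3848 at 24 h, 994 and 1456 at 72 h, 290 (without the third 12 h mouse) and 579 for 72 h against 12 h, and 94 and 756 for 24 h minus 12 h. In the neighbour lists calls were 3 with the replicate block at 12 h (20 without), 2 at 72 h (21) and 5 for 72 h against 12 h (10), and 71 with pooled controls at 24 h (33). With control mouse 6 or the second 24 h mouse left out they ran between 20 and 21 at 12 h, 21 and 38 at 24 h, 17 and 21 at 72 h and 10 and 11 for 72 h against 12 h. The causes were not tested.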
